A study of Mus musculus with 8 samples.

Results

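The sirtuin and PGC1 coactivator genes examined here are 10 genes, chosen by name: the sirtuins Sirt1, Sirt2, Sirt3, Sirt4, Sirt5, Sirt6 and Sirt7, the coactivator genes Ppargc1a and Ppargc1b, and Nampt, which encodes the enzyme that supplies sirtuins with NAD. Each matched 1 row of a table of 45706 genes, and all 10 were among the 14629 genes that passed the filter on low counts. The table comes from RNA sequencing of liver from female C57BL/6J mice aged 4 months, collected after an overnight fast, with 1 library for each of 8 mice. WT mice (n = 4) carried unedited Plin5, and SA/SA mice (n = 4) carried the S155A change in both Plin5 alleles, introduced with CRISPR-Cas9 in every cell of the body rather than in hepatocytes alone. Each library is a separate mouse by its label, and no fed mice are in the table, so the values describe the fasted state only. The comparison asks whether loss of the phosphorylation site in PLIN5, a lipid droplet protein that has been placed upstream of SIRT1 and PGC1a in cultured cells, changed the transcripts of these genes.

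Sirtuins are enzymes that remove acetyl or related acyl groups from lysines and consume NAD in doing so. In liver, SIRT1 deacetylates PGC1a, the protein made from Ppargc1a, and PGC1a binds nuclear receptors and other transcription factors to raise genes of gluconeogenesis, fatty acid oxidation and mitochondria during fasting. Ppargc1a is itself a classic target of glucagon and cAMP through CREB, whereas much of the control of SIRT1 acts on the protein and on NAD, which a transcript count does not measure. NAMPT makes the NAD precursor nicotinamide mononucleotide, and its gene is a known output of the circadian clock.

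The promoters of Ppargc1a, Sirt1 and Nampt are shown because these genes stand for the cAMP-controlled coactivator, the deacetylase and the clock-linked enzyme, and because the first and the last had the largest SD of log2 CPM between mice of 1 genotype, as described below. Each sequence is the 250 bases before the RefSeq transcription start in GRCm38.p6, 5′ to 3′ on the strand of the gene. By the GENCODE spans given below, Sirt1 reaches to 63381704 on the reverse strand and Nampt begins at 32819545. The Sirt1 and Nampt windows thus lie inside the annotated gene, and starts further upstream were not searched. Capitals mark an E-box (CACGTG, the site read by CLOCK and BMAL1) or the core of the cAMP response element (TGACG or its reverse complement CGTCA).
Ppargc1a, chr5:51567726-51567975, reverse strand: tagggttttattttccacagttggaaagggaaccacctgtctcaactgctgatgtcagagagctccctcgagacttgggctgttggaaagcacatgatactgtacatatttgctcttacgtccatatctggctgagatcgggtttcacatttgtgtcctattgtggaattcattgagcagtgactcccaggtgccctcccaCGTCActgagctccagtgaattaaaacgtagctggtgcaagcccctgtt
Sirt1, chr10:63339036-63339285, reverse strand: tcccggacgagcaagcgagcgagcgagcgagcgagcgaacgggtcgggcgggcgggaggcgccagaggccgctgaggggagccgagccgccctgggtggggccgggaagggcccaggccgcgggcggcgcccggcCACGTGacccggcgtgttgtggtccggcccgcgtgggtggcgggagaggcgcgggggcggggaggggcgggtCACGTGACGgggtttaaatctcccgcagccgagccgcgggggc
Nampt, chr12:32820085-32820334, forward strand: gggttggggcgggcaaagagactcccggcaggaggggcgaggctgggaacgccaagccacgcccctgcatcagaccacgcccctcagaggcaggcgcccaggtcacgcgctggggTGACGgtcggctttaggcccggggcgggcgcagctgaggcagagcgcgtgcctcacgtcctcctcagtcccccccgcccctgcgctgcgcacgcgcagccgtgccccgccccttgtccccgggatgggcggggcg

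The Ppargc1a window was 48.0% G and C with 5 CG pairs, whereas the Sirt1 window was 79.2% with 39 CG pairs and the Nampt window 75.6% with 27 CG pairs. Ppargc1a held this core at -49 to -45 from the start, and Nampt held it at -135 to -131. Sirt1 held E-boxes at -115 to -110 and at -43 to -38, the second of which overlapped a core at -39 to -35. RefSeq windows matched 9 of the 10 genes. On either strand, the core was in 17.7% of the 32817 windows of this length and also in those of Sirt3 and Sirt4, and the E-box was in 6.02%, among these genes only in that of Sirt1. The whole cAMP response element (TGACGTCA, 1.55% of all windows), an estrogen-related receptor element (TCAAGGTCA, 0.387%) and a D-box (TTATGTAA, 0.817%) were in none of the windows of the 9 genes. Only the 11 windows of these 9 genes were searched. The absence of an element there does not cover other starts or regions of a gene. Which start is used in these livers was not tested. A match of letters describes the window and says nothing about binding in these livers.

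The labels give liver as tissue and hepatocytes as cell type. Hepatocyte genes (Alb, Apoa1 and 4 others) summed to between 88212 and 125526 CPM per mouse, where CPM is the TMM-scaled count relative to library size. Transcripts of other liver cells were present too, such as the Kupffer cell marker Clec4f at 3505 to 6968 counts, so the values were read as whole liver, in which a change in cell makeup and a change in RNA per cell cannot be told apart. The total count was between 39709785 and 54540864 per library. SA/SA replicate 3 stood apart by 13 lymphocyte genes that summed to 2068 CPM, mostly immunoglobulin Ighm and Igkc, against 20.5 to 49.5 CPM in the 7 other mice. WT replicate 2 held pancreatic acinar transcripts, with 400 counts of Ctrb1 against 0 to 13 in the others. Summed CPM of Kupffer cell and macrophage genes was 263 to 522 in WT and 269 to 586 in SA/SA mice, of endothelial genes 184 to 263 and 160 to 206, of stellate genes 243 to 328 and 112 to 263, and of red blood cell genes 411 to 2648 and 951 to 1155, and their part in the values below was not tested. Of 6 adipocyte genes, Lep was at 0 in all libraries and Adipoq at 1 to 19 counts, whereas Cidec, which hepatocytes also express, was at 1372 to 7050 counts. Of 6 skeletal muscle genes, Acta1 and Myh4 were at 0 in all libraries and Mylpf at 15 to 41 counts. The animal numbers in the labels form a run below 200 (replicates 1 and 4 of each genotype) and a run above 800 (replicates 2 and 3), here called the low and the high number series. Plin5 itself, whose count includes reads of either allele, was at 254, 194, 183 and 194 CPM in WT replicates 1 to 4 and at 457, 276, 192 and 386 CPM in SA/SA replicates 1 to 4.

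None of the 10 genes differed between SA/SA and WT liver past an adjusted p of 0.05, where 0% of the 14629 genes tested did. The adjusted p of every member was at least 0.993 (edgeR's quasi-likelihood test, Benjamini-Hochberg over all genes tested). At an unadjusted p under 0.05 there were 0 of 10 members, against 3.40% of all genes, and in 0 of 10 did the WT and SA/SA mice fail to overlap, against 2.30% of all genes. With DESeq2, which called 7 genes or 0.0345% of those given an adjusted p, the smallest adjusted p of a member was 0.99996. Of the 10, 8 members had a higher fitted value in SA/SA mice and Sirt1 and Sirt4 a lower one. The median log2 fold change of the 10 was 0.082, against -0.0050 over all genes tested, and the median size regardless of sign was 0.10 against 0.14. Without SA/SA replicate 3 the members' log2 fold changes ran from -0.16 to 0.51 and without WT replicate 2 from -0.26 to 0.39, with no member at an adjusted p under 0.913.

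**Figure D1:**
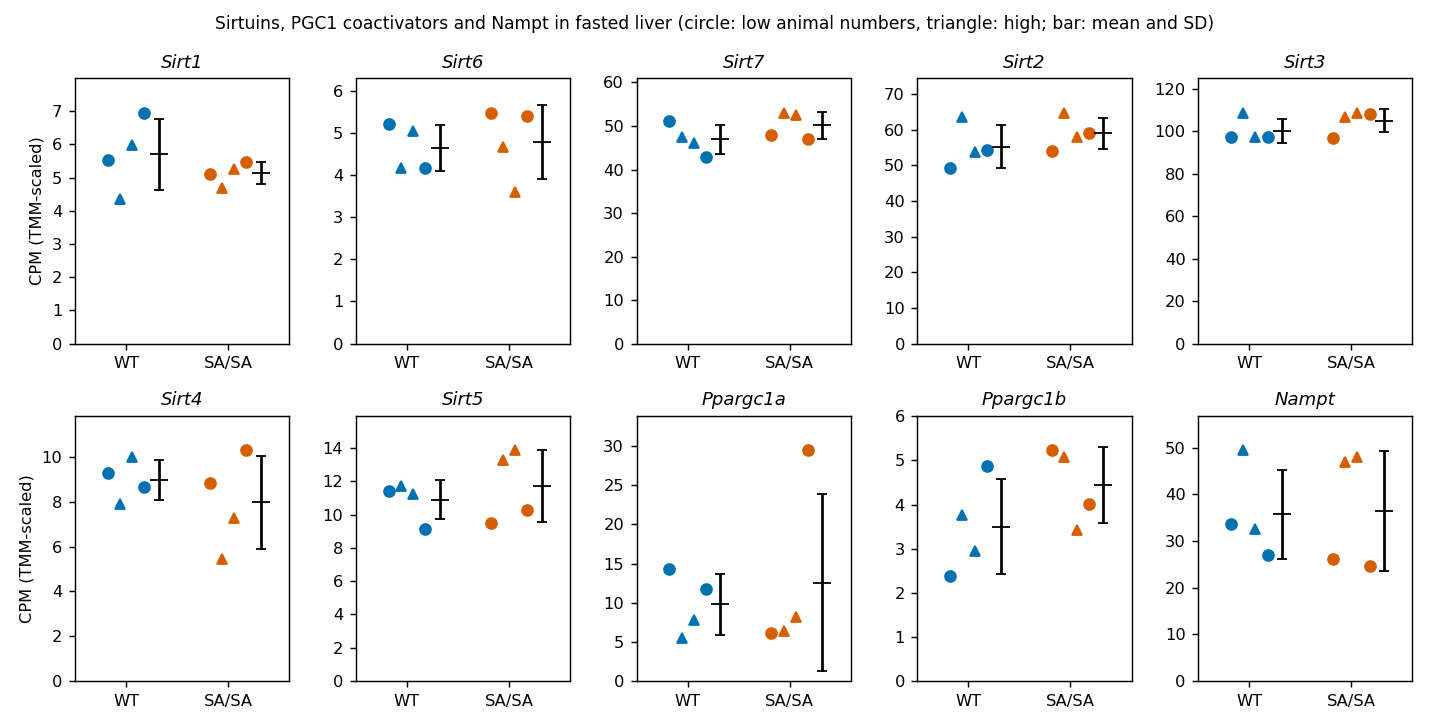
CPM of each of the 10 genes (y axes, linear from 0) in 4 WT (blue) and 4 SA/SA mice (orange), with the mean and SD of each genotype beside the points, and circles for the low and triangles for the high number series. WT and SA/SA mice overlap in every panel, and SA/SA replicate 4 stands at 29.5 CPM of Ppargc1a.

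The nuclear sirtuins had no called difference. SIRT1 deacetylates PGC1a, FOXO1 and histones. Sirt1 was at 5.52, 4.36, 5.98 and 6.95 CPM in WT replicates 1 to 4 and at 5.10, 4.69, 5.25 and 5.48 CPM in SA/SA replicates 1 to 4. The SA/SA mice all lay inside the WT range, which was set by replicates 2 and 4. The means were 5.70 ± 1.07 and 5.13 ± 0.330 CPM (SD, n = 4 each), which gave a log2 fold change of -0.15 with a standard error of 0.17. The 95% interval ran from -0.53 to 0.23, which as a fold is 0.692 to 1.17. Leaving out WT replicate 2 made Sirt1 the single member without overlap, all SA/SA mice then being lower, where 6.04% of all genes did not overlap. That alternative was added after the data were seen.

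SIRT6 is a chromatin-bound deacetylase with a role in glycolysis and DNA repair. Its gene was at 5.20, 4.17, 5.03 and 4.16 CPM in WT mice and at 5.47, 4.65, 3.59 and 5.40 CPM in SA/SA mice, so the SA/SA values enclosed those of the WT mice. The log2 fold change of Sirt6 was 0.043 (standard error 0.18, 95% interval -0.36 to 0.45). SIRT7, the nucleolar sirtuin linked to ribosomal RNA synthesis, had a steadier transcript. Sirt7 was at 51.1, 47.4, 46.2 and 42.9 CPM in WT mice and at 48.0, 53.0, 52.6 and 47.1 CPM in SA/SA mice. The highest of them were SA/SA replicates 2 and 3, and the ranges overlapped. Its log2 fold change was 0.097 (standard error 0.093, 95% interval -0.11 to 0.30, two-sided exact permutation test on log2 CPM, p = 0.171, where 0.0286 is the smallest p that 4 mice against 4 allow).

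SIRT2, mainly a cytosolic tubulin deacetylase, was among the more abundant members. Sirt2 was at 49.2, 63.5, 53.7 and 54.2 CPM in WT mice and at 54.0, 64.7, 58.0 and 59.1 CPM in SA/SA mice. In both genotypes replicate 2 was the highest, and the log2 fold change was 0.096 (standard error 0.11, 95% interval -0.14 to 0.33).

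None of the 3 mitochondrial sirtuins was called either. SIRT3 is the main deacetylase of mitochondrial enzymes and acts on those of fatty acid oxidation and ketogenesis. Sirt3 was at 97.3, 109, 97.3 and 97.5 CPM in WT mice and at 97.0, 107, 109 and 108 CPM in SA/SA mice. Values of about 97 CPM were thus found in 3 WT mice and 1 SA/SA mouse, and values of about 108 CPM in 1 WT mouse and 3 SA/SA mice. The means were 100.2 ± 5.64 and 105 ± 5.48 CPM (SD, n = 4 each), and the log2 fold change was 0.069 (standard error 0.090, two-sided exact permutation test p = 0.486). Its 95% interval in folds, 0.913 to 1.21, was the narrowest of the 10 genes.

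SIRT4 acts on glutamate dehydrogenase and other enzymes by reactions other than plain deacetylation. Sirt4 was at 9.29, 7.91, 10.001 and 8.68 CPM in WT mice and at 8.84, 5.46, 7.29 and 10.3 CPM in SA/SA mice, which were at both ends of the range. The log2 fold change was -0.17 (standard error 0.19, 95% interval -0.60 to 0.26). SIRT5 removes succinyl, malonyl and glutaryl groups, for instance from the urea cycle enzyme CPS1. Sirt5 was at 11.4, 11.7, 11.2 and 9.16 CPM in WT mice and at 9.49, 13.3, 13.9 and 10.3 CPM in SA/SA mice. The SA/SA mice of the high number series were the highest and those of the low series lay within the WT range, and the log2 fold change was 0.11 (standard error 0.15, 95% interval -0.24 to 0.45).

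Ppargc1a varied more than any other member, and its direction rested on 1 mouse. It was at 14.2, 5.54, 7.77 and 11.7 CPM in WT mice and at 6.08, 6.41, 8.21 and 29.5 CPM in SA/SA mice. SA/SA replicate 4, with 1490 counts, was above every other mouse, and the 3 other SA/SA mice lay within the WT range. The means were 9.82 ± 3.90 and 12.5 ± 11.3 CPM (SD, n = 4 each), with a log2 fold change of 0.35 fitted by edgeR (standard error 0.51). A two-sided exact permutation test of the difference in mean log2 CPM, a separate measure from that fitted value, gave p = 0.857. Without SA/SA replicate 4 the value was -0.51, and with limma-voom on all mice it was 0.097. The 95% interval in folds, 0.578 to 2.82, was the widest of the 10. SA/SA replicate 4 had 438 counts of Igkc and 0 of Ctrb1, the transcripts that stood out in SA/SA replicate 3 and WT replicate 2. The part of cell makeup in the Ppargc1a value of SA/SA replicate 4 was not tested.

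Ppargc1b encodes PGC1b, a coactivator that shares partners with PGC1a and also acts with SREBP1 on lipid synthesis. Its transcript was at 2.39, 3.77, 2.95 and 4.88 CPM in WT mice and at 5.23, 5.09, 3.43 and 4.01 CPM in SA/SA mice, on 128 to 282 counts per mouse. SA/SA replicates 1 and 2 exceeded every WT mouse, and the other SA/SA mice lay among them. The log2 fold change was 0.35 (standard error 0.25, 95% interval -0.21 to 0.90, two-sided exact permutation test p = 0.229). Without WT replicate 4 it was 0.55, with an unadjusted p of 0.0478 from edgeR. Among the 18 alternatives no other member reached a smaller unadjusted p, and the smallest adjusted p of any member was 0.840.

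The genotype means of Nampt were close, but its values fell into higher and lower mice. It was at 33.7, 49.4, 32.6 and 27.0 CPM in WT mice and at 26.1, 47.1, 48.1 and 24.7 CPM in SA/SA mice. WT replicate 2 and SA/SA replicates 2 and 3, all of the high number series, were at 47.1 CPM or more, and no other mouse exceeded 33.7 CPM. The means were 35.7 ± 9.62 and 36.5 ± 12.8 CPM (SD, n = 4 each), and the log2 fold change was 0.030 (standard error 0.26, 95% interval -0.55 to 0.61). Its sign turned under several alternatives given in the closing section.

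**Figure D2:**
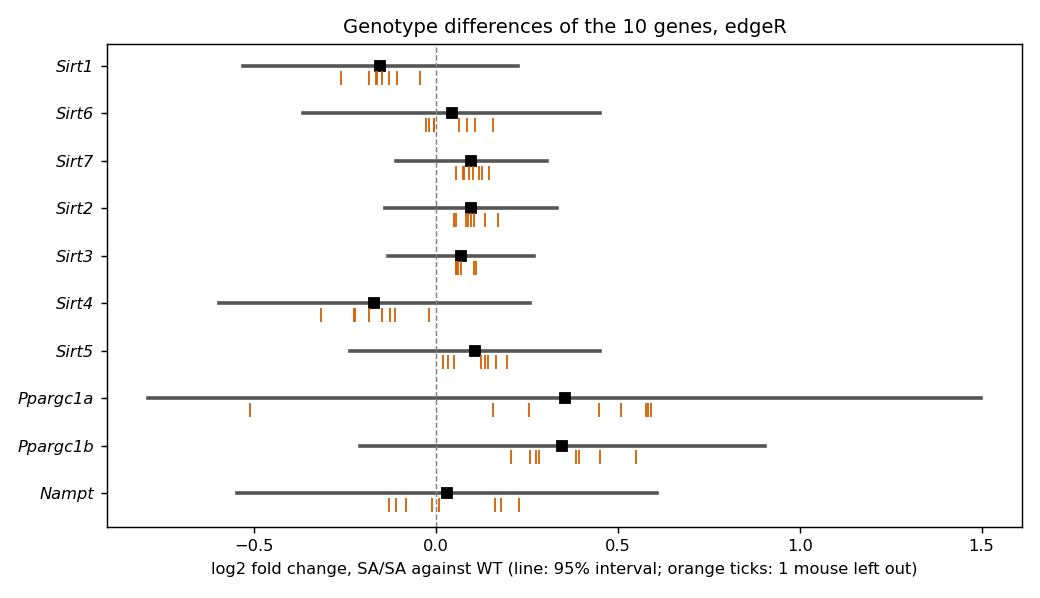
Log2 fold change of each gene in SA/SA against WT mice (x axis; black square, with the 95% interval as a grey line) and the 8 values with 1 mouse left out (orange ticks). Every interval includes 0, the widest is that of Ppargc1a, and 1 tick of Ppargc1a lies at -0.51, without SA/SA replicate 4.

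Genotype differences were also taken within each number series, with 2 WT and 2 SA/SA mice in each. The mice of both genotypes did not overlap for 3 members in the low series (Sirt1, Sirt6 and Nampt), where 32.9% of all genes did not, and for 3 others in the high series (Sirt4, Sirt5 and Sirt7), where 46.5% did not. The difference in mean log2 CPM in the low and the high series was -0.23 and -0.041 for Sirt1, 0.13 and 0.068 for Sirt2, 0.072 and 0.066 for Sirt3, and 0.021 and 0.17 for Sirt7. It had the same sign in both series for Ppargc1a (0.052 and 0.14) and Ppargc1b (0.42 and 0.32). Both Ppargc1a values were below the 0.35 that edgeR fitted over all mice, which is not a difference in mean log2 CPM. For Ppargc1a in the low series, SA/SA replicate 1 (6.08 CPM) was below and replicate 4 (29.5 CPM) above both WT mice (14.2 and 11.7 CPM). The sign there thus rested on SA/SA replicate 4. Opposite signs were found for Sirt4 (0.087 and -0.49), Sirt5 (-0.049 and 0.24), Sirt6 (0.22 and -0.16) and Nampt (-0.25 and 0.24). Tested as an interaction in edgeR, with 2 mice for each genotype and series, none of these contrasts passed: the smallest unadjusted p was 0.0835 for Sirt4 (interaction -0.58, adjusted p = 0.519), and Nampt had an unadjusted p of 0.128 (interaction 0.47). By comparison, 11.1% of all genes had an unadjusted interaction p under 0.05, and 0% an adjusted one.

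The 10 genes differed in how much they varied between mice of 1 genotype. The SD of log2 CPM was 0.078 for Sirt3, 0.097 for Sirt7 and 0.13 for Sirt2, which was at or above the SD of only 1.996%, 4.93% and 13.7% of the genes tested. For Nampt it was 0.45, at the 73.3 percentile, and for Ppargc1a 0.87, at the 93.9 percentile. From its lowest to its highest mouse, Ppargc1a spanned 5.32-fold, Ppargc1b 2.19-fold and Nampt 2.01-fold. The remaining 5 members had SDs between 0.21 for Sirt1 and 0.37 for Ppargc1b. Counting error weighs more on Sirt1, Sirt6 and Ppargc1b, at 352 counts or fewer per mouse, than on Sirt3, at 4114 to 5470 counts, and was not separated from variation between mice.

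**Figure D3:**
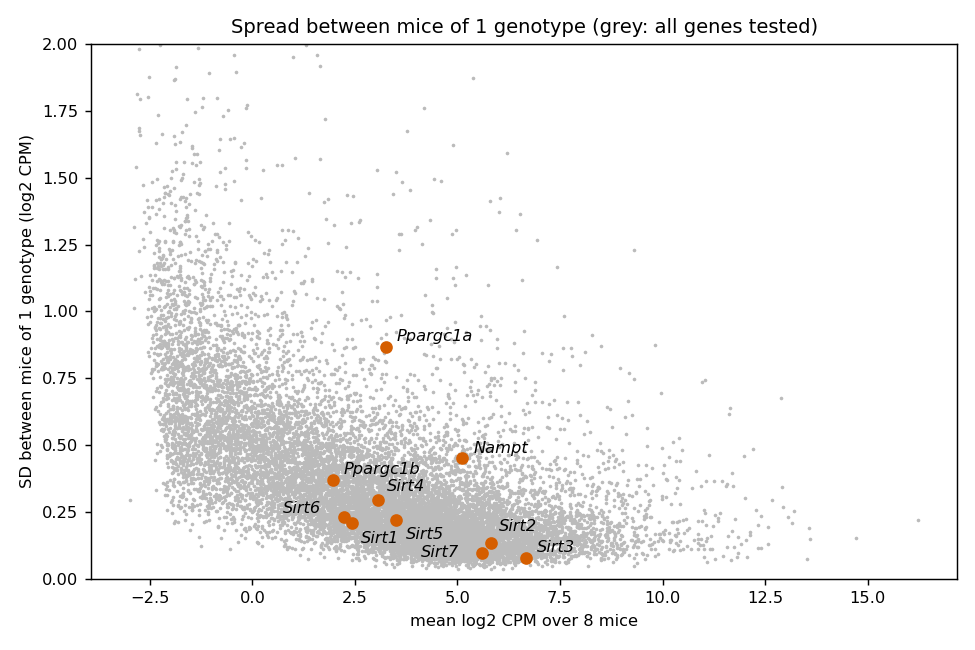
SD of log2 CPM between mice of 1 genotype (y axis, drawn up to 2, with 53 genes above) against mean log2 CPM over 8 mice (x axis) for all 14629 genes tested (grey) and the 10 members (orange). Sirt3 and Sirt7 lie at the lower edge of the cloud, and Ppargc1a and Nampt lie above most genes of their level.

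Levels were compared between genes only per length, as CPM per kb of the median annotated coding transcript. On this scale Sirt3 was highest, at a mean of 93.3 over the 8 mice, followed by Sirt7 at 39.9, Sirt2 at 31.1, Nampt at 7.97 and Sirt5 at 7.30. Below them were Sirt4 at 4.93, Ppargc1a at 4.06, Sirt6 at 2.83, Sirt1 at 1.42 and Ppargc1b at 1.14. The ranges of neighbours in this order did not overlap between Sirt3 and Sirt7, between Sirt2 and Nampt, and between Sirt6 and Sirt1. Nampt exceeded Sirt5 in 5 of 8 mice, Ppargc1a exceeded Sirt6 in 4 of 8, and Sirt1 exceeded Ppargc1b in 6 of 8, so these neighbours did not differ beyond their spread. Sirt7 exceeded Sirt2 in 8 of 8 mice, but with the merged exon length of each gene in place of transcript length, an alternative added after the data were seen, Sirt2 (11.3) came before Sirt7 (9.43), and Sirt4 (3.53) before Sirt5 (1.86). Under both lengths Sirt3 was first and Sirt1 and Ppargc1b last.

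Nampt was compared with the clock genes over the 8 mice, and the mice high in Nampt were high or low in many of them. Of 18 clock genes, 12 had a Pearson correlation with Nampt beyond 0.8 in either direction over the 8 mice, where 8.21% of the other 14628 genes did. Many clock genes also rose and fell together over these mice, so the 12 are not separate matches to set against that share. Dbp, a PAR bZIP factor driven by CLOCK and BMAL1, was at 24.5, 153, 66.1 and 9.71 CPM in WT mice and at 19.6, 132, 153 and 9.33 CPM in SA/SA mice. The same 3 mice that were high in Nampt were high in Dbp (r = 0.95, Spearman's rho 0.93, r = 0.90 without the 2 mice farthest from the median of Nampt). Arntl, which encodes BMAL1, ran the other way, at 8.26, 1.81, 4.88 and 16.0 CPM in WT mice and at 8.56, 2.75, 1.61 and 17.4 CPM in SA/SA mice (r = -0.95, rho -0.93, r = -0.90 without the 2 mice). Dbp and Arntl were picked after their values were seen, and no gene passed an adjusted p of 0.05 for likeness to Nampt (exact permutation over 40320 orders of the mice, Benjamini-Hochberg over 14628 genes, adjusted p = 0.160 for Dbp and 0.157 for Arntl). The smallest p that these orders allow is 2.48e-05, so after that adjustment 1 gene alone could not pass, however high its r. Failing to pass therefore does not show that a gene was unlike Nampt. The mice fall into a higher and a lower cluster with fewer than 6 in each, and each number series holds 4 mice, so r was not computed within clusters or series, and the pooled r includes the contrast between them.

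**Figure D4:**
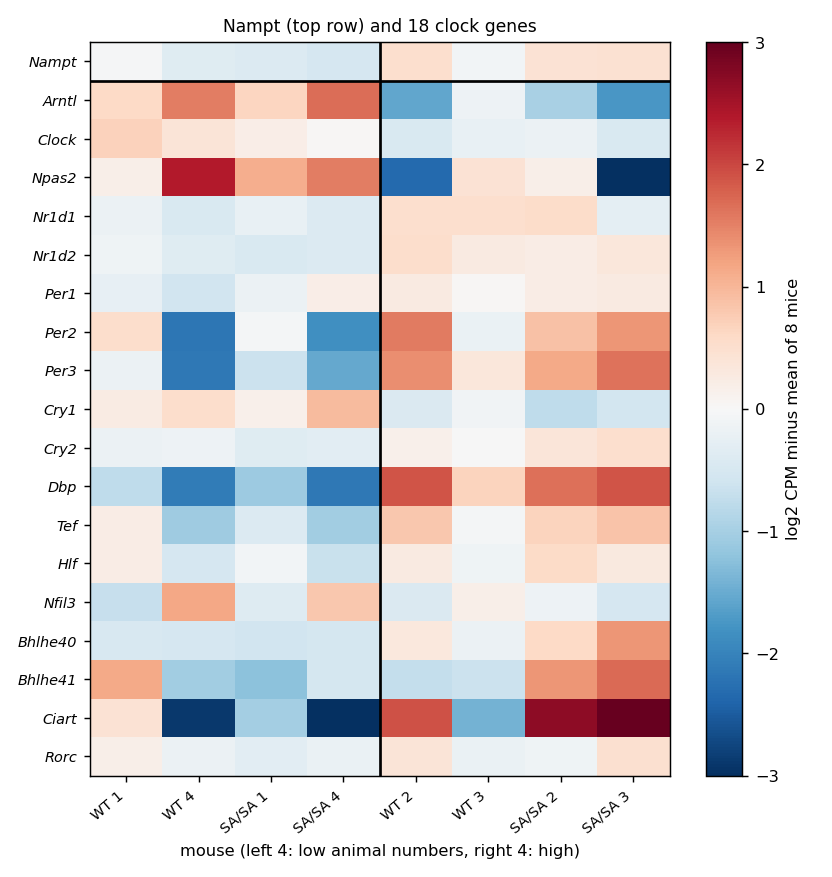
Log2 CPM minus the mean of the 8 mice (colour, full at 3 log2 units and beyond) for Nampt (top row) and 18 clock genes (rows) in the low number series (left 4 columns) and the high number series (right 4 columns). Dbp, Per3, Tef and Ciart share the direction of Nampt in WT replicate 2 and SA/SA replicates 2 and 3, and Arntl and Cry1 run opposite.

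No clock gene passed the genotype test. Of the 18, 0 had an unadjusted p under 0.05 in either direction, and their median log2 fold change was 0.057, from -0.15 in the low series to 0.23 in the high series as medians of the differences in log2 CPM. By the rule on smallest p, Ciart, a repressor of CLOCK and BMAL1, was at 1.70 on the log2 fold scale (standard error 1.25, unadjusted p = 0.203), and Bhlhe40, another repressor, at 0.59 (standard error 0.40, unadjusted p = 0.168). The 3 genes with the highest r with Nampt overall were Slc9a3r1 (r = 0.99, rho 0.90), Hdc (r = 0.98, rho 0.90) and Slc25a44 (r = 0.98, rho 0.90), and their r without the 2 farthest mice was 0.99, 0.96 and 0.96. Their adjusted p by exact permutation was between 0.142 and 0.151.

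Around Nampt, the enzymes of NAD synthesis and use were measured as a list of 29 genes that includes Nampt, of which 28 were tested. None was called, and the median log2 fold change was 0.028. One gene had an unadjusted p under 0.05, Nmnat2, an adenylyltransferase of the Golgi and cytosol (log2 fold change 1.42, standard error 0.59, unadjusted p = 0.0353). It was at 0.147 to 0.259 CPM in WT mice and at 0.2595, 0.641, 1.35 and 0.237 CPM in SA/SA mice, with the highest value in SA/SA replicate 3, the library with 2068 CPM of lymphocyte genes. The part of that library's makeup in this value was not tested. On the same scale, Nnmt, the methyltransferase that clears nicotinamide, was at 0.61 (standard error 0.35), Slc25a51, the mitochondrial NAD carrier, at -0.26 (standard error 0.17), and Nadk2, the mitochondrial NAD kinase, at -0.15 (standard error 0.11), each with an unadjusted p of 0.113 or more. With Nampt, 4 of the 27 other genes had r beyond 0.8 in either direction, where 8.21% of all genes did, and 1 of the 4, Parp2, was negative (r = -0.81). The median r was 0.42, against 0.0028 over all genes.

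The partners and targets of the coactivators were described in the same way. Of 32 factors bound by PGC1 proteins and their modifiers, 31 were tested and 0 were called, with a median log2 fold change of -0.068. Ncor1, a corepressor, had an unadjusted p of 0.0496 and a log2 fold change of -0.27 (standard error 0.12), and the acetyltransferase gene Crebbp was at -0.19 (standard error 0.10) and Kat2a, whose product acetylates PGC1a, at 0.13 (standard error 0.11). Of 30 liver genes activated by PGC1a, 0 were called and the median was 0.067. The lowest p in that list was that of G6pc, the glucose-6-phosphatase of gluconeogenesis, at 213, 242, 335 and 451 CPM in WT mice and at 154, 181, 195 and 208 CPM in SA/SA mice. All SA/SA mice were below all WT mice (log2 fold change -0.75, standard error 0.22, unadjusted p = 0.00655, adjusted p = 0.993 in edgeR, two-sided exact permutation test p = 0.0286). Such a lack of overlap was found in 1 of the 30 genes and in 2.30% of all genes, and it always gives that smallest possible permutation p. Because G6pc was picked by its p in these same data, these values add no separate support. Over the 8 mice the correlation of G6pc with Ppargc1a was low (r = 0.14, rho 0.24, r = 0.74 without SA/SA replicate 4 and WT replicate 1). Pck1, another gluconeogenesis gene of the list, had a higher value (r = 0.61, rho 0.69, r = 0.92 without the same 2 mice). Across the 30 genes r with Ppargc1a ran from -0.55 to 0.68, with a median of 0.13, and 16 were positive. Of the 30 genes, 0 had r beyond 0.8 with Ppargc1a, against 1.48% of all genes, a share at which 0 of 30 tells little.

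The genes most like Ppargc1a over the 8 mice were Mtg1 (r = 0.94), Tfap4 (r = 0.93), Ganc (r = 0.92), Tprkb (r = 0.92) and Mcc (r = 0.92), and those most opposite were Ppm1l (r = -0.97), Pitpnm2 (r = -0.96) and Tmem229b (r = -0.94). Their rho was between 0.76 and 0.93 for the first group and between -0.93 and -0.86 for the second. Without SA/SA replicate 4 and WT replicate 1, r fell to between 0.67 and 0.89 in the first group and lay between -0.92 and -0.75 in the second. All had an adjusted p of 0.931 by exact permutation. Most like Sirt1 were Snx6 (r = 0.98, rho 0.98, adjusted p = 0.363 by exact permutation), Pdik1l (r = 0.96, rho 0.98) and Degs1 (r = 0.96, rho 0.83), with r of 0.93, 0.99 and 0.86 without the 2 mice farthest from the median of Sirt1. No gene passed an adjusted p of 0.05 for likeness to any of the 10 members. With a smallest possible p of 2.48e-05, 1 gene alone could not pass after adjustment over 14628 genes, however high its r. These adjusted values therefore do not decide which genes were like a member.

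Regulators and substrates of the sirtuins showed no called gene either. Of 16 regulators and interactors of SIRT1, 0 had an unadjusted p under 0.05 and the median log2 fold change was 0.11. Hic1, a repressor of Sirt1 transcription, was at -0.58 (standard error 0.31) and Elavl1, whose product binds Sirt1 mRNA, at 0.15 (standard error 0.11). Of 20 mitochondrial substrates of SIRT3, SIRT4 and SIRT5, 0 had an unadjusted p under 0.05, with a median of 0.049. Idh2, the NADP-linked isocitrate dehydrogenase, was at 0.28 (standard error 0.17), Ppif, the cyclophilin of the permeability pore, at 0.37 (standard error 0.23), and Glud1, glutamate dehydrogenase, at -0.092 (standard error 0.093). The 11 zinc-dependent histone deacetylases, the other deacetylase family, had a median of 0.014 and 0 genes with an unadjusted p under 0.05. Hdac9 had the smallest p among them (log2 fold change -1.05, standard error 0.51, at 0.0989 to 0.730 CPM).

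In GENCODE release M21 of GRCm38 the 10 genes lie on 7 chromosomes. Sirt1 (ENSMUSG00000020063) spans 63319005 to 63381704 on chromosome 10 and Sirt6 (ENSMUSG00000034748) 81621785 to 81627797 on the same chromosome. Sirt2 (ENSMUSG00000015149) spans 28766735 to 28788661 and Sirt3 (ENSMUSG00000025486) 140863666 to 140882309 on chromosome 7. Chromosome 5 holds Sirt4 (ENSMUSG00000029524), from 115478010 to 115484725, and Ppargc1a (ENSMUSG00000029167), from 51454250 to 51567726. Sirt5 (ENSMUSG00000054021) lies on chromosome 13 from 43365496 to 43395203, Sirt7 (ENSMUSG00000025138) on chromosome 11 from 120618372 to 120625240, and Nampt (ENSMUSG00000020572) on chromosome 12 from 32819545 to 32853349. Ppargc1b (ENSMUSG00000033871) lies on chromosome 18 from 61298136 to 61400431. Sirt4, Sirt5 and Sirt6 overlap no other annotated gene. Sirt1 overlaps the antisense gene Gm16145, Sirt2 overlaps Nfkbib, and Sirt3 overlaps Ric8a and Psmd13, each on the strand opposite to it. The use of strand in the counting is not given in the sources used here, and reads from such pairs may not have been told apart. On their own strand, Sirt7 overlaps Mafg and Mir6936, Nampt overlaps the lincRNA gene Gdap10, and Ppargc1b overlaps Mir378a, while Ppargc1a spans 3 TEC gene models, a class still to be tested experimentally, so that reads could have been divided between them.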

How the data were processed

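RNA sequencing of liver was analysed for 4 WT and 4 SA/SA mice. The deposited values are estimated counts, which the authors made per gene with salmon and scaled for transcript length but not for library size. The submitters' processing notes name GRCm38, STAR, SAMtools and DESeq2, and the salmon version, annotation release and use of strand are not given in the sources used here. Columns were matched to mice by animal number, and 0 columns of other samples were present. Length scaling can shift a gene whose isoforms differ between mice.

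Estimated counts were rounded, filtered with filterByExpr and compared with the quasi-likelihood test of edgeR 4.0.16 (R 4.3.3, TMM, no covariate, Benjamini-Hochberg over all genes tested). Log2 CPM used a prior count of 2. Exact permutation tests were two-sided, and those of genotype compared mean log2 CPM rather than the log2 fold change fitted by edgeR. Adjusted p-values of single genes are from edgeR unless another test is named. The test was checked on simulated data. The alternatives were DESeq2 1.42.0, limma-voom (limma 3.58.1), DESeq2 size factors, library size alone, 3 other filters, a robust fit, a replicate block, a number series term and leaving out each mouse. Nothing in the labels shows a shared litter or day, which does not show that there was none. The p-values measure the spread between these mice, and without a series term that spread includes any difference between the number series. No pair of libraries of 1 genotype agreed within sampling noise.

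The members and gene lists were chosen with earlier results of these data known. The rule named Plin5, the members, in each list the 2 higher and 2 lower genes with the smallest p (some of which are printed), and the genes most like Ppargc1a, Sirt1 and Nampt with a mean of at least 1 CPM. Figures were drawn with matplotlib. One comparison with a fixed gene list is not reported here.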

Additional observations from a re-analysis of the deposited data

Results flagged for a closer look

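Within each genotype, the highest or lowest of the 4 mice was compared with its nearest neighbour for every member, and in 2 of 20 groups that gap, as a share of the range, was over Dixon's 95% critical value for 4 samples. Chance flags about 1 in 20 groups. Ppargc1a in SA/SA replicate 4 was at 29.5 CPM, above a next highest SA/SA value of 8.21 CPM, and on the log2 scale the same gap was 0.810 of the range, below the critical value. On that scale 3 groups were past it: the same Sirt3 group, Sirt3 in SA/SA mice, where replicate 1 was lowest (0.835 of the range), and Sirt5 in WT mice, where replicate 4 was lowest (0.838). Sirt3 in WT replicate 2, the library with acinar transcripts, was at 109 CPM, the remaining WT values lying from 97.3 to 97.5 CPM. Sirt3 was at 107 to 109 CPM in 3 SA/SA mice too, so this mouse was not apart from the 8 as a whole. The part of the acinar transcripts was not tested.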

How the results depend on the processing

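Over 18 alternatives, 167 of 180 member values kept their direction and 13 turned. Nampt turned to -0.022 with library size alone, -0.015 with limma-voom and -0.023 with the number series as a term, and with 1 mouse left out its lowest value was -0.13 (without SA/SA replicate 3) and its highest 0.23 (without WT replicate 2), being -0.011 and -0.082 without WT replicates 3 and 4 and -0.11 without SA/SA replicate 2. Sirt6 ran from -0.028 to 0.16, being -0.0045 and -0.0051 without WT replicates 2 and 4 and -0.028 and -0.019 without SA/SA replicates 1 and 4. Ppargc1a ran from -0.51 (without SA/SA replicate 4) to 0.59, Ppargc1b from 0.20 to 0.55, Sirt1 from -0.26 to -0.044 and Sirt4 from -0.32 to -0.018. The cause was not tested. No member was called under any alternative. DESeq2 called 7 genes in all where edgeR called 0. Without WT replicate 2, 1 member (Sirt1) had no overlap between genotypes, and in the 7 other sets with 1 mouse left out it was 0.

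Mice with the same replicate number also share a number series. The labels name no shared litter or day, so the replicate number was read as a name only and the mice were not treated as pairs. In 2 of 4 such pairs the mice deviated together with a correlation over 0.1, which does not settle whether they were paired. As a hint from the data, 3 of 4 WT mice correlated best with the SA/SA mouse of their own number. With a replicate block no gene was called, Nampt was at -0.0046 and Ppargc1a at 0.11, against 0.35 without the block and 0.097 with limma-voom. The standard error of Ppargc1a was 0.37 with the block and 0.51 without it. Library size alone moved the median of all genes by -0.037, and Sirt2 to 0.056, Sirt3 to 0.031, Sirt5 to 0.061, Sirt6 to 0.015 and Sirt7 to 0.058. The SE of log2 fold changes was between 0.090 (Sirt3) and 0.51 (Ppargc1a) for the members, with a median of 0.19 over all genes.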

Other observations

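Among the 45 pairs of members, 3 had a Pearson correlation beyond 0.8 over the 8 mice. Sirt5 and Nampt had r = 0.88 (rho 0.83, r = 0.86 without the 2 mice farthest from the median of Sirt5), Sirt2 and Sirt3 had r = 0.84 (rho 0.74, r = 0.89 without the 2 farthest) and Sirt5 and Sirt7 had r = 0.83 (rho 0.76, r = 0.63). By exact permutation the unadjusted p was 0.0071 for Sirt5 with Nampt, 0.022 for Sirt2 with Sirt3 and 0.0137 for Sirt5 with Sirt7. These pairs were picked from the 45 by their r. Adjusted over 14628 genes, the p was 0.168, 0.376 and 0.206 in the same order, so none passed. That adjustment, at which 1 pair alone could not pass, does not decide whether the pairs were alike. Each number series holds 4 mice, and r was not computed within it.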
